A study of Mus musculus with 24 samples.

Results

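The regions described here are 1111 stretches of the mouse genome where liver lacking hepatocyte GATA4 carried at least 1.5-fold more acetylation of histone H3 lysine 27 (H3K27ac) than control liver. They were taken from 63686 regions measured by H3K27ac ChIP-seq in 12 livers. A region had to have a mean normalized value of at least 50 over the 12 libraries, which 40633 regions did. The mean of its 6 knockout libraries plus 1, divided by the mean of its 6 control libraries plus 1, also had to reach 1.5. Fasted and refed mice were pooled for that ratio, which 2.73% of the 40633 regions reached. The regions were thus chosen by their knockout and control values, which are given below as a description with no test. The ratio did not compare fasted with refed liver, and refeeding was tested, though on the same values.

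H3K27ac marks active promoters and enhancers, and it is laid down by the acetyltransferases p300 and CBP when transcription factors recruit them. GATA4 is a zinc-finger transcription factor that binds the core letters GATA and acts in heart, gut and liver, with Zfpm (FOG) proteins as cofactors. In the liver it is present in hepatocytes and in sinusoidal endothelial and stellate cells. Fasting and refeeding move acetylation across the hepatocyte genome through hormone-regulated factors such as the glucocorticoid receptor, FOXO1 and SREBP-1.

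All mice were male C57BL/6J carrying 2 floxed copies of Gata4 (Gata4 fl/fl), in 4 groups of 3. Knockout mice received AAV8-Tbg-Cre, in which the Tbg promoter restricts Cre recombinase to hepatocytes, and control mice an empty AAV8, so other liver cells kept the gene in both. The vector was given at 8 weeks of age and the mice were killed 7 days later, at 9 weeks, between 9 and 10 am. Fasted mice were without food for the last 12 h. Refed mice fasted through the preceding daytime for 12 h and were then fed for 12 h, on a diet of which 69% was sucrose and 10% fat, so the clock time of the fast differed between the feeding states. The labels give no batch, and all mice of a group carry 1 number whose meaning they do not give, so what it marks and the group cannot be told apart. In whole liver, fewer cells of a type and less acetylation per cell cannot be told apart.

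The libraries held 22.2 to 30.4 M reads in the 63686 regions. Acetylation at Gata4 does not measure the deletion; its 6 regions with a mean of at least 50 had ratios of 0.843 to 1.39, and none is among the 1111. Hepatocyte marker regions, which include Alb, Apob and Hnf4a, summed to values of 76163 to 86674 in fasted control and 74700 to 80501 in fasted knockout libraries, which overlapped. In refed libraries they summed to 70748 to 77996 in control and 65895 to 68704 in knockout, which did not overlap. Stellate marker regions summed to 8328 to 9063 in control and 7747 to 8192 in knockout libraries, which did not overlap either, and no member lies at a stellate marker. The part of these sums in the results was not tested. Endothelial marker regions summed to 65310 to 71091 and 65643 to 71159, and lymphocyte marker regions to 2038 to 2544 and 1882 to 2381, so the ranges overlapped.

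The deposited coordinates are on the mm9 build, and the sequence of the regions themselves was not used here. For members annotated at a promoter, the promoter of the same gene is shown from RefSeq on GRCm38.p6, from 250 bases before to 50 bases after the start. Of 24 such members, 14 matched RefSeq by symbol and 12 had a single promoter. The letters GATAA were searched on both strands (GATAA or TTATC) and are in capitals where found. They occurred in 1 of 12 promoters (8.33%) and in 25.4% of 32851 mouse promoters. No match says only that these letters are absent from the window. The 4 promoters below were chosen to show the range among the highest-level promoter members: Rab6b has 42 CG dinucleotides, Exoc4 13, Ugt1a10 1, and Phlda2 holds the match. Rab6b lies at chr9:103111824-103112123 on the plus strand, Exoc4 at chr6:33248878-33249177 on the plus strand, Ugt1a10 at chr1:88055161-88055460 on the plus strand and Phlda2 at chr7:143502475-143502774 on the minus strand. Each is written 5′ to 3′ in the direction of the gene.
Rab6b: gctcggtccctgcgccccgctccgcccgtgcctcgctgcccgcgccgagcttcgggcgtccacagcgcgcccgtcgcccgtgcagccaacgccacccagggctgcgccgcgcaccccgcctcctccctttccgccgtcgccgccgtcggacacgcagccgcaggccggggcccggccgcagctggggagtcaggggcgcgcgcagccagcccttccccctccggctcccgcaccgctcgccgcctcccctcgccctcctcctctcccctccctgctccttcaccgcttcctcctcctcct
Exoc4: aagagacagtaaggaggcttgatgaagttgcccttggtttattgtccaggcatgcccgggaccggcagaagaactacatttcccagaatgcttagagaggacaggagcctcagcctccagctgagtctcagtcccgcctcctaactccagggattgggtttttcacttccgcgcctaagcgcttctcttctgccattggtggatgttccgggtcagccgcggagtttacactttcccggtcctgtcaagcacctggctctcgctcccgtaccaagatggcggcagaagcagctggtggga
Ugt1a10: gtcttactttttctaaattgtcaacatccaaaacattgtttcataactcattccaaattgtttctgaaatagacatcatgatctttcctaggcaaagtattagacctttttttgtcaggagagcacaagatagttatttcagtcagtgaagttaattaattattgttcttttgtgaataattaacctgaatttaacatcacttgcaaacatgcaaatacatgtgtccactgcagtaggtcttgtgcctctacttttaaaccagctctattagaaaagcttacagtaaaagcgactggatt
Phlda2: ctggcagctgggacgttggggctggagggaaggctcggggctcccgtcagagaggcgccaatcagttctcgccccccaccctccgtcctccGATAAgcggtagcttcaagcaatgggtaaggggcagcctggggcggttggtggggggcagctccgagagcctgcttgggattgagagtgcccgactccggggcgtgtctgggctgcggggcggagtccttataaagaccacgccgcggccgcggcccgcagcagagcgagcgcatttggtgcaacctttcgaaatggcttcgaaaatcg

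Most members were weakly acetylated regions with a moderate difference. Their mean value had a median of 88.7, from 50.1 to 1451, against 239 for all 40633 regions, and 656 of them had a mean under 100. Their ratio had a median of 1.63 with quartiles of 1.55 and 1.77; 122 members reached 2, 22 reached 3 and 6 reached 5. The ratio of all regions itself moved with level, from a median of 1.09 at means of 50 to 75 to 0.969 at means of 2000 and above. Members made up 6.94% of regions at means of 50 to 75, 3.54% at 100 to 200, 0.198% at 800 to 2000 and 0% above. Divided by the median ratio of regions of like mean, 595 regions reached 1.5. Summed over the members, the values of a library came to 97969 to 124960 in controls and 174630 to 205890 in knockouts.

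**Figure D1:**
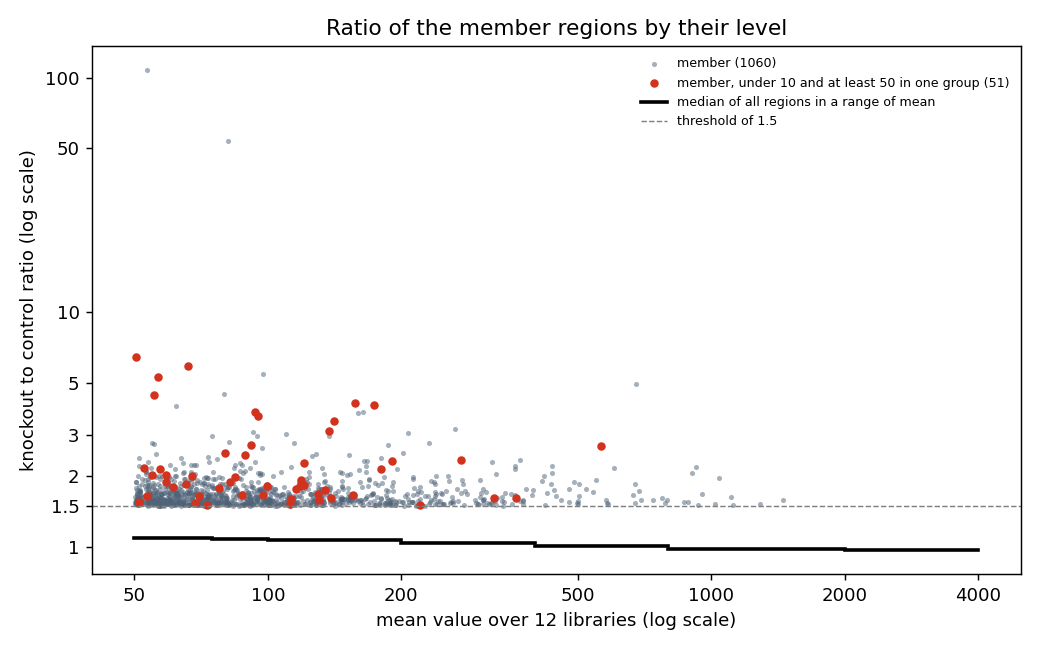
Mean value over 12 libraries against the knockout to control ratio, both on log scales, with 1 point per member region. Most points lie between the threshold of 1.5 and a ratio of 2 at low means, and the black steps show the median ratio of all regions falling from 1.09 to 0.969 with level. Red points are the 51 members with a value under 10 and a value of at least 50 within 1 group.

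The pooled ratio did not come equally from both feeding states. It was at least 1.5 in both for 461 members, in fasted liver alone for 241 and in refed liver alone for 409. The median ratio was 1.59 in fasted and 1.76 in refed liver, against 1.01 and 1.04 over all 40633 regions and 1.06 and 1.14 at means of 50 to 75. It was below 1 in fasted liver for 21 members and in refed liver for 14. All 3 knockout libraries lay above all 3 controls in fasted liver for 642 members (57.8%; 11.1% of all regions with a mean of at least 50) and in refed liver for 779 (70.1%; 17.7% of all regions). All 6 knockout libraries lay above all 6 controls for 132 members (11.9%; 0.682% of all regions). The rule used these values, so nothing is read from these shares.

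Several members near regulatory and metabolic genes separated the genotypes completely. A region 98.5 kb downstream of the start of Adamts1, a secreted metalloprotease (chr16:85703702-85705974), had values of 0, 7.35 and 4.59 in fasted control liver, 143, 147 and 151 in fasted knockout liver, 0, 0 and 0 in refed control liver and 161, 226 and 134 in refed knockout liver. Every knockout liver was acetylated there and every control was at or close to 0. A wide region 600.7 kb upstream of Sox11, a transcription factor of neural development (chr12:28623578-28633063), had 162, 244 and 232 in fasted control liver, 1326, 1169.9 and 594 in fasted knockout liver, 266, 354 and 107 in refed control liver and 1148, 1819 and 698 in refed knockout liver. The lowest knockout value was above the highest control, with a ratio of 4.94.

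Nr1d2 encodes REV-ERBβ, a haem-binding nuclear receptor that represses clock and lipid genes. A region in its intron (chr14:19056963-19059246) had 42.1, 68.9 and 74.6 in fasted control liver, 224, 245 and 118 in fasted knockout liver, 60.2, 65.9 and 50.6 in refed control liver and 143, 175 and 109 in refed knockout liver. Its ratio was 2.77, and no library of either genotype fell within the other's range. Foxo1, the forkhead factor that insulin excludes from the nucleus, had an intronic member (chr3:52098951-52100736) at 34.8, 67.1 and 58.5 in fasted control liver, 102, 123 and 140.5 in fasted knockout liver, 38.4, 30.6 and 35.5 in refed control liver and 90.0, 80.8 and 81.8 in refed knockout liver. Here too the genotypes did not overlap, and the highest values were in fasted knockout liver. Ces1g, a carboxylesterase that hydrolyses lipids, had a member 50.0 kb upstream (chr8:95909750-95912447) at 132, 142 and 127 in fasted control liver, 349.7, 238 and 374 in fasted knockout liver, 118, 129.9 and 94.1 in refed control liver and 205, 236 and 198 in refed knockout liver. All knockout values lay above all control values, as they did for intronic Mtmr10 (ratio 3.77) and near Nrn1, the secreted neuritin (ratio 3.74).

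Other members with high ratios were near 0 in some mice and strongly acetylated in others of the same group. Such a region could still separate the genotypes. Near Dlc1 a fasted control was at 0, and the lowest knockout (194) lay above the highest control (188). The members described next overlapped between the genotypes in at least 1 feeding state. In 51 members (4.59%) at least 1 group held a library under 10 and another of at least 50; these limits were chosen after the values were seen. The share was 0.450% of all 40633 regions. At means of 50 to 200 it was 4.85% of members and 0.860% of regions. Among members with a ratio of at least 3, it was 10 of 22, and 8 of the 15 named members with the highest ratio were among them. Whether mice differ at these loci for a reason other than genotype or feeding was not tested.

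Zfpm1 encodes FOG-1, a GATA cofactor. A region 107.8 kb upstream of it (chr8:124696529-124699879) had 112, 0 and 0 in fasted control liver, 0, 163 and 322 in fasted knockout liver, 124, 0 and 131 in refed control liver and 169.8, 415 and 449 in refed knockout liver. A knockout liver was at 0 and 3 of 6 controls were above 100 while the ratio was 4.09. Rab6b, a small GTPase of Golgi transport, had a member 3.0 kb upstream (chr9:103010077-103012756) with 0, 158 and 0 in fasted control liver, 396, 392 and 271 in fasted knockout liver, 0, 0 and 250.4 in refed control liver and 13.5, 348 and 251 in refed knockout liver. The neighbouring promoter member had 1.83, 126 and 9.18 in fasted control liver, 248, 237 and 209 in fasted knockout liver, 10.9, 22.3 and 207 in refed control liver and 57.4, 266 and 297 in refed knockout liver. At least 50 was reached by the same 2 controls in both regions, 1 in each feeding state, and by 5 of 6 knockouts upstream and 6 of 6 at the promoter. In both regions the genotypes separated in fasted liver and overlapped in refed liver.

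Upstream of Cpm, a carboxypeptidase of the cell surface, the values were 3.66, 118 and 50.5 in fasted control liver, 202, 245 and 176 in fasted knockout liver, 0, 0 and 71.0 in refed control liver and 73.1, 4.55 and 194 in refed knockout liver (chr10:116991271-116992831). Low and high livers occurred in both refed groups and among fasted controls, while the genotypes separated in fasted liver. Near Pink1, a mitochondrial kinase, they were 0, 29.4 and 0 in fasted control liver, 107, 106 and 85.6 in fasted knockout liver, 0, 0 and 88.8 in refed control liver and 1.12, 97.9 and 149 in refed knockout liver (chr4:137883530-137884802). The low livers again came from both genotypes, which separated in fasted liver and overlapped in refed liver. Ly6g, a neutrophil surface antigen, had an upstream member (chr15:74978120-74980977) at 0, 0 and 0 in fasted control liver, 173, 0 and 138 in fasted knockout liver, 0, 110.4 and 0 in refed control liver and 116, 179 and 76.4 in refed knockout liver. At least 50 was reached by 5 knockout livers and 1 control. Near Cyp2b9, a female-biased cytochrome P450, low and high libraries occurred in all 4 groups, with 284, 162 and 0 in fasted control liver, 1.00, 751 and 2.11 in fasted knockout liver, 0, 0.928 and 142 in refed control liver and 180.0, 0 and 95.8 in refed knockout liver. In each genotype 3 livers were at least 50, the highest was a fasted knockout, and the ratio was 1.74.

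**Figure D2:**
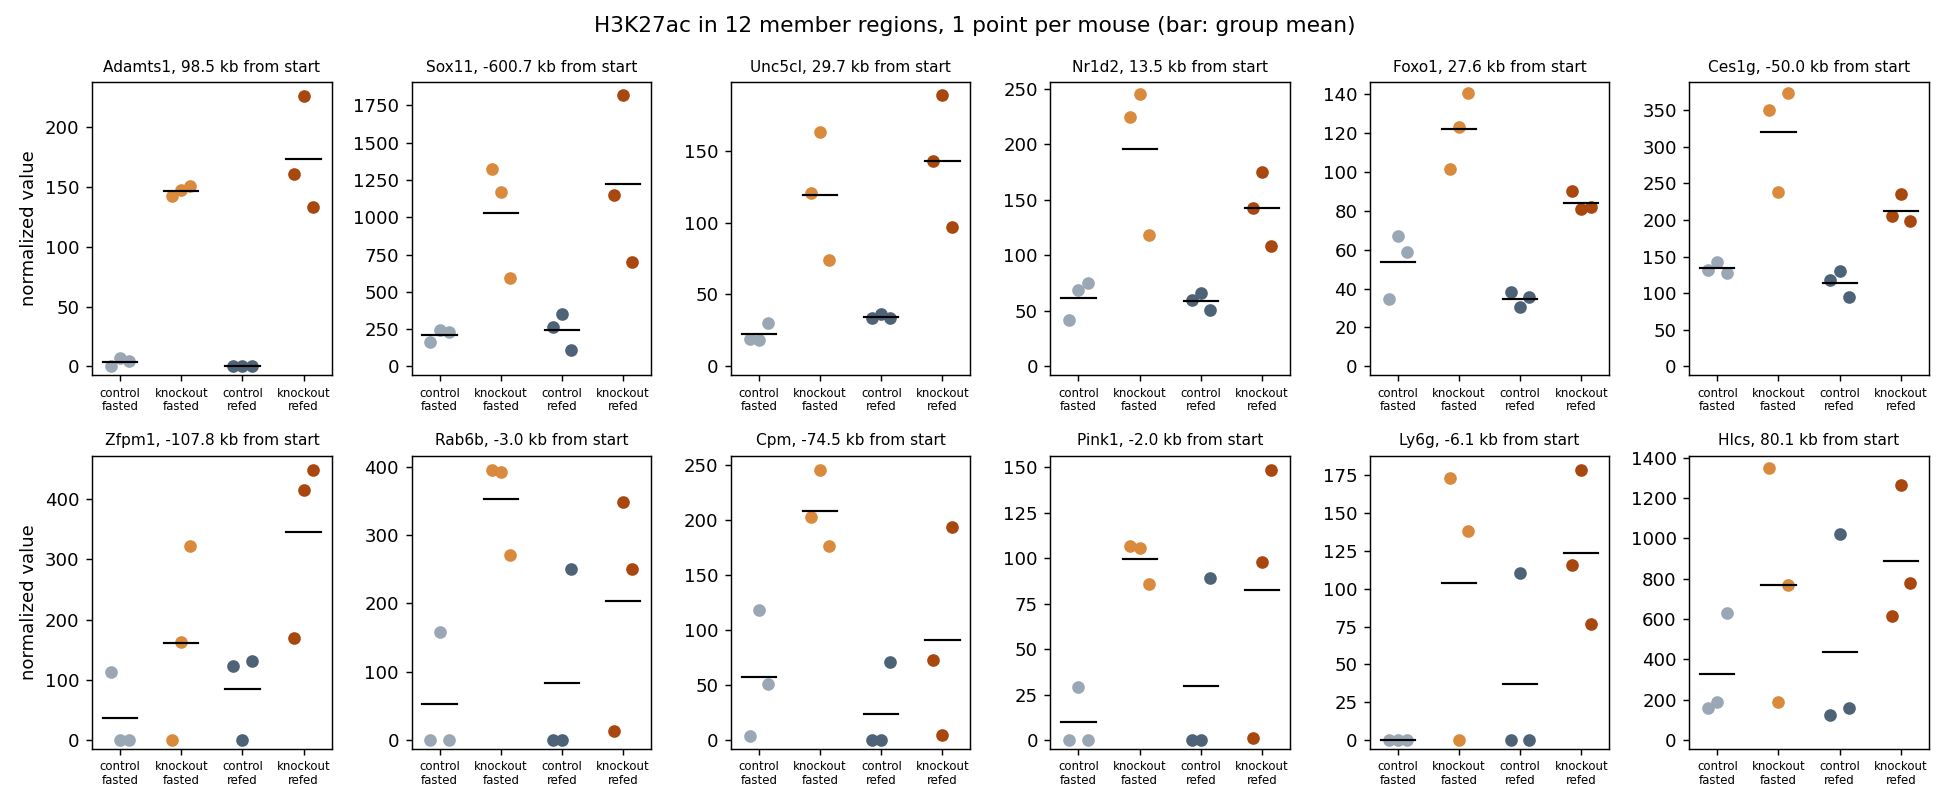
Normalized H3K27ac value in each of 12 livers for 12 member regions; the horizontal axis gives the 4 groups, points are mice and bars are group means. In the upper row all knockout livers lie above all controls, and in the lower row both genotypes hold low and high livers.

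Members also lay in runs. Of the 1111, 418 (37.6%) had another member within 100 kb, in 176 runs, and 154 genes were nearest to at least 2 members. No such share was computed for other regions of like number and level, so nothing is read from these counts. Hlcs, the ligase that attaches biotin to carboxylases, led with 6 intronic members, which were all the regions with a mean of at least 50 over 64.3 kb. The member at chr16:94412977-94420883 had 0, 0 and 598 in fasted control liver, 1227, 0 and 707 in fasted knockout liver, 0, 1233 and 0 in refed control liver and 704, 1602 and 699 in refed knockout liver. Controls of 0 and of over 1000 stood side by side in refed liver. In the member 80.1 kb from the start the values were 161, 189 and 631 in fasted control liver, 1347, 187 and 767 in fasted knockout liver, 126, 1023 and 157 in refed control liver and 613, 1266 and 781 in refed knockout liver. The same 2 controls and the same 5 knockouts were the high livers in both regions. None of the 6 Hlcs members separated the genotypes in fasted liver, and 1 did in refed liver.

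Pxylp1, a phosphatase of glycosaminoglycan synthesis, had 4 members in a row, and all 4 were high in refed knockout liver. The one 47.1 kb from the start (chr9:96741750-96743800) had 0, 0 and 0 in fasted control liver, 0, 0 and 0 in fasted knockout liver, 0, 0 and 0 in refed control liver and 190.1, 232 and 219 in refed knockout liver. Against a floor of 3 reads per library, refed knockout liver was at least 80.6-fold above refed control liver, which gave the highest ratio of all members (107.8). The other 3 were also highest in refed knockout liver, with 3 values each that lay above the other 9 libraries. The one at 37.8 kb had 5.49, 34.0 and 35.6 in fasted control liver, 14.1, 20.9 and 20.1 in fasted knockout liver, 29.3, 18.6 and 22.2 in refed control liver and 180.0, 165 and 198 in refed knockout liver. In fasted liver the ratio of the 4 regions was 0.730 to 1.00, and in refed liver it was 1.93 to 215.

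Mbnl2, an RNA splicing factor, had the opposite dependence on feeding. Its 5 members had ratios of 2.10 to 3.31 in fasted and 1.05 to 1.48 in refed liver. All 5 separated the genotypes in fasted liver and 1 did in refed liver. The member 85.2 kb into the gene (chr14:120759236-120761027) had 36.6, 47.8 and 47.1 in fasted control liver, 117, 171 and 154 in fasted knockout liver, 42.6, 30.6 and 48.8 in refed control liver and 56.2, 85.4 and 40.9 in refed knockout liver. The 3 fasted knockout livers stood above the other 9. Lipc, the hepatic lipase that remodels HDL, resembled Pxylp1 in feeding state, with ratios of 1.05 to 1.40 in fasted and 1.75 to 3.25 in refed liver over 5 members. The Lipc member 32.1 kb into the gene (chr9:70749491-70751573) had 70.4, 93.7 and 73.5 in fasted control liver, 102, 94.7 and 52.8 in fasted knockout liver, 41.8, 35.3 and 25.8 in refed control liver and 74.2, 134 and 132 in refed knockout liver. The refed controls were the low group, while the fasted genotypes overlapped. Lipc had 18 regions with a mean of at least 50 in all, so 13 did not reach the threshold.

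Unc5cl, a death-domain protein of NF-κB signalling, had 5 members among 6 regions over 117 kb downstream. The member at chr17:48622822-48625093 had 19.2, 18.4 and 29.8 in fasted control liver, 121, 163 and 73.9 in fasted knockout liver, 33.4, 36.2 and 33.7 in refed control liver and 143, 189 and 96.9 in refed knockout liver. All knockouts were above all controls, with a ratio of 4.48. Nr3c1, the glucocorticoid receptor, had 4 weak members among 25 regions. The member 23.5 kb into the gene (chr18:39622955-39623818) had 38.4, 57.9 and 58.5 in fasted control liver, 69.3, 64.9 and 45.4 in fasted knockout liver, 24.2, 29.7 and 25.8 in refed control liver and 66.4, 64.9 and 60.3 in refed knockout liver. The 3 refed controls were the lowest livers there.

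**Figure D3:**
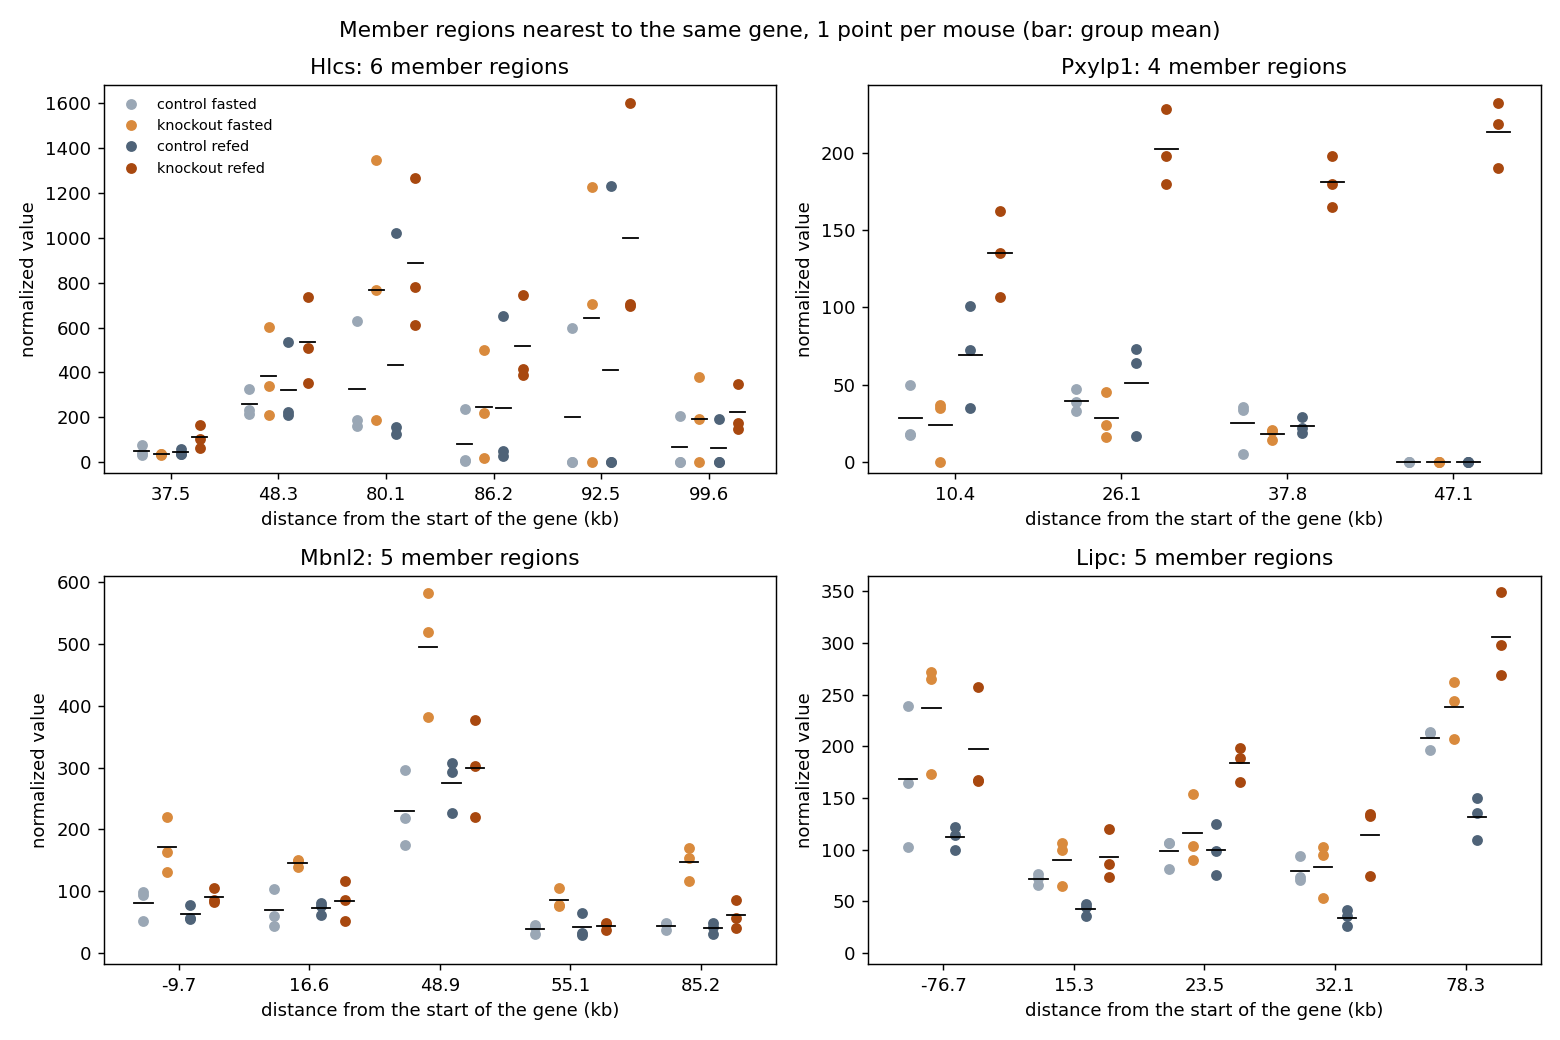
Normalized value of each member region of Hlcs, Pxylp1, Mbnl2 and Lipc, ordered by distance from the start of the gene in kb, with 1 point per mouse and a bar at each group mean. Hlcs holds low and high livers in both genotypes, Pxylp1 members are high in refed knockout liver, Mbnl2 members in fasted knockout liver, and Lipc members are lowest in refed controls at 4 of 5 positions.

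Few members were strongly acetylated: 34 had a mean of at least 500 and 6 of at least 1000. The highest named member lay 21.9 kb upstream of Vegfa, the endothelial growth factor (chr17:46186531-46195837), with 1601, 854 and 1213 in fasted control liver, 1494, 2201 and 1411 in fasted knockout liver, 821, 675 and 977 in refed control liver and 1433, 1193 and 1612 in refed knockout liver. The genotypes overlapped in fasted liver and separated in refed liver. A wide intronic region of Fam53b (chr7:139914116-139924426) had 576, 607 and 740.3 in fasted control liver, 1318, 1747 and 1015 in fasted knockout liver, 419.5, 633 and 492 in refed control liver and 1286, 1590.0 and 664 in refed knockout liver. It separated the genotypes in both feeding states, with a ratio of 2.20. A member 1.1 kb upstream of the kinase gene Dyrk3 had 601, 679 and 725 in fasted control liver, 1093, 1250.3 and 846 in fasted knockout liver, 750.5, 735 and 657 in refed control liver and 1079.8, 1254 and 955 in refed knockout liver. All knockout livers exceeded all controls.

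Arrdc4, an arrestin that limits glucose uptake, had 3 members, the strongest 64.1 kb downstream of its start (chr7:75826706-75833345) with 1179, 683 and 794 in fasted control liver, 1377, 1604 and 1089 in fasted knockout liver, 361, 352 and 305 in refed control liver and 569, 652 and 557 in refed knockout liver. Genotypes separated in refed liver, and fasted livers of both were higher than refed ones. Near Cdh26, a cadherin, the values were 485, 562 and 623 in fasted control liver, 584, 422 and 384 in fasted knockout liver, 763, 1089 and 1322 in refed control liver and 1768, 2313 and 1919.6 in refed knockout liver. The fasted knockout mean was below the fasted control mean, and the pooled ratio of 1.52 came from refed liver. A region near Gcnt7 spread within groups, at 1237, 1185 and 476 in fasted control liver, 1291, 1109 and 1412 in fasted knockout liver, 221, 214 and 931 in refed control liver and 889.7, 962 and 1528 in refed knockout liver. A fasted control (476) and a refed control (931) departed from the others in opposite directions.

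The median distance of the members to the nearest transcription start was 23.4 kb against 13.1 kb for all regions with a mean of at least 50, and 51 (4.59%) were within 1 kb of a start against 22.3%. Weighted to the mean levels of the members, the share of all regions was 11.9%. Promoters held 24 members (2.16%; 9.75% of all regions, 4.90% weighted), introns 545 (49.1%; 50.3%, 50.9% weighted) and intergenic DNA 490 (44.1%; 31.5%, 36.8% weighted). Members had a median width of 1897 bp, and all regions 2494 bp. By chromosome, members were 0.570% of regions on chromosome X and 4.07% on chromosome 8, with the other autosomes between 2.15% and 3.89%.

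A deposited column gives GATA4 ChIP peaks within 500 bp of a region; the libraries behind it are not part of these 12. It named a peak for 23 members (2.07%), for 4504 of all 40633 regions (11.1%) and for 82 of 311 regions with a ratio of 1/1.5 or less (26.4%). Weighted to the mean levels of the members, the share of all regions was 6.83%. Members with a peak had ratios of 1.50 to 1.86 and means of 50.7 to 672, and none of the 122 members with a ratio of at least 2 had a peak. None of the 23 held both a value under 10 and a value of at least 50 in a group. The share over all 1111 members was 4.59%, so nothing is read from this count.

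The strongest member with a GATA4 peak was a wide region 16.5 kb downstream of the start of Nek2, a mitotic kinase (chr1:193657545-193666224), with 273, 365 and 337 in fasted control liver, 696, 526 and 566 in fasted knockout liver, 610.1, 547 and 684 in refed control liver and 1233, 1229 and 998 in refed knockout liver. Knockouts lay above controls within each feeding state. At Acot3, a peroxisomal acyl-CoA thioesterase, the region over the start (chr12:85390826-85395787) had 564, 258 and 248 in fasted control liver, 421, 872 and 392 in fasted knockout liver, 281, 107 and 163 in refed control liver and 469, 296 and 267 in refed knockout liver. The genotypes overlapped in fasted and in refed liver. The Acot1, Acot3 and Acot4 cluster, whose genes hydrolyse fatty acyl-CoA and are similar in sequence, held 4 members among 5 regions, 2 of them with a peak. How the authors placed reads that match several copies is not given in the sources used here, so the split between these genes is uncertain. Intronic Cda, cytidine deaminase, had 213, 303 and 301 in fasted control liver, 437, 379 and 400.3 in fasted knockout liver, 247, 217 and 319.7 in refed control liver and 396, 455 and 426 in refed knockout liver. Intronic Bin3, an actin-linked adaptor, had 211, 193 and 232 in fasted control liver, 381, 326 and 326 in fasted knockout liver, 219.8, 139 and 165 in refed control liver and 389, 344 and 279 in refed knockout liver. At both, all knockouts exceeded all controls.

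**Figure D4:**
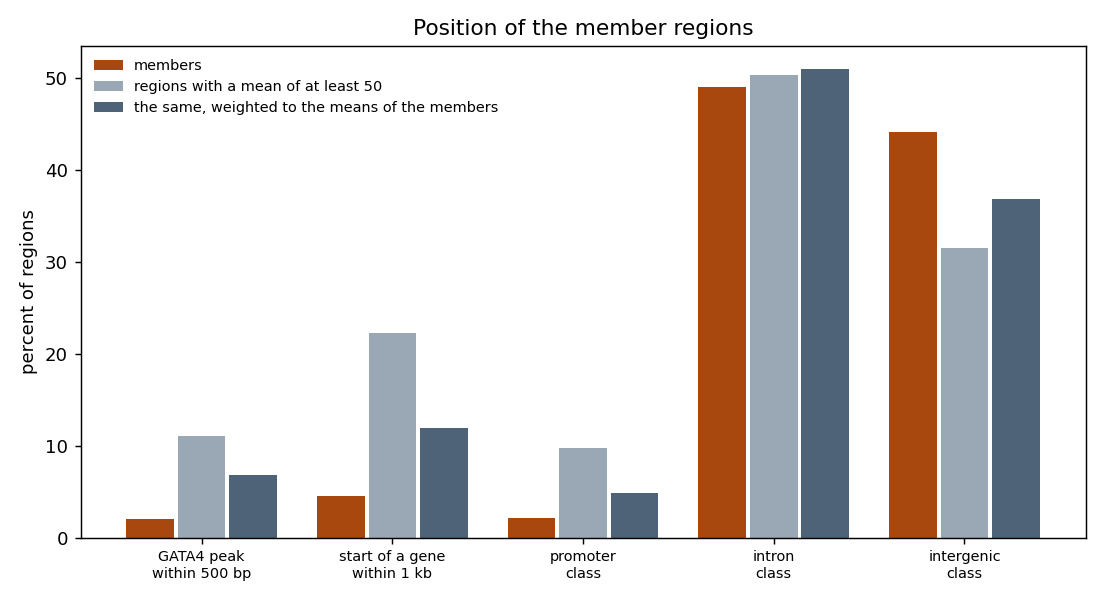
Percent of regions with a GATA4 peak within 500 bp, with a gene start within 1 kb and in 3 annotation classes, for the 1111 members, all 40633 regions with a mean of at least 50, and the latter weighted to the mean levels of the members; bars start at 0. Members have 2.07% with a GATA4 peak against 6.83% weighted, and 44.1% intergenic against 36.8% weighted.

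The 24 promoter members included the genes whose promoters are printed above. Exoc4, a subunit of the exocyst that tethers vesicles, had 184, 204 and 249 in fasted control liver, 374, 435 and 293 in fasted knockout liver, 237, 266 and 205 in refed control liver and 418, 463 and 308 in refed knockout liver at its promoter (chr6:33197182-33199930). All knockouts lay above all controls. Ugt1a10, a UDP-glucuronosyltransferase whose gene shares its later exons with the other Ugt1a genes, had 192, 139 and 193 in fasted control liver, 266, 325 and 229 in fasted knockout liver, 206, 136 and 168 in refed control liver and 222, 293 and 234 in refed knockout liver. The lowest knockout exceeded the highest control by a small margin. At Phlda2, an imprinted gene with a pleckstrin homology domain, the values were 45.7, 91.0 and 70.0 in fasted control liver, 81.4, 82.5 and 74.998 in fasted knockout liver, 108, 127 and 129 in refed control liver and 219, 229 and 327 in refed knockout liver. The genotypes overlapped in fasted liver and separated in refed liver.

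The Ankmy1, Osbp2 and Snai3 promoters had ratios of 1.26, 1.13 and 1.45 in fasted and 2.18, 2.20 and 2.09 in refed liver. Tcf24 had the reverse order, 3.09 fasted and 1.24 refed. Trp53cor1, the p53-induced lincRNA-p21 beside Cdkn1a, had 366, 376 and 656 in fasted control liver, 777, 1041 and 728 in fasted knockout liver, 699, 816 and 625 in refed control liver and 1084, 1249.7 and 852 in refed knockout liver. Fasted knockouts were above fasted controls, and refed knockouts above refed controls.

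Of 26 gene lists, 18 had at least 1 member. In the list of p53 and DNA damage genes 5 of 44 regions were members (11.4%; 2.73% of all regions), and the median ratio of the list was 1.10 against 1.03. In this list 1 region was lower in knockout liver by at least the factor of the rule. Gdf15, a stress-induced hormone, had 11.9, 129.6 and 31.0 in fasted control liver, 128, 86.9 and 95.1 in fasted knockout liver, 13.4, 13.0 and 24.0 in refed control liver and 129, 129 and 108 in refed knockout liver (chr8:73149970-73151526). Refed knockouts stood far above refed controls, and a single fasted control overlapped the fasted knockouts. Cdkn1a, the p21 cell-cycle inhibitor, had an intronic member with 32.0, 60.7 and 129.7 in fasted control liver, 93.5, 107 and 71.8 in fasted knockout liver, 56.8, 56.6 and 3.55 in refed control liver and 116, 175 and 84.0 in refed knockout liver. The fasted genotypes overlapped and the refed ones did not. This member is 1 of the 51 with a library under 10 and another of at least 50 in a group. Gadd45a and the death receptor Fas had ratios of 1.56 and 1.52.

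Of xenobiotic genes 5 of 51 regions were members (9.80%), near Ces1g, Cyp2b10, Cyp2a5 and Gsta1, and 1 region was lower by at least the factor of the rule. Cyp2a5, the coumarin hydroxylase, had 350.3, 255 and 227 in fasted control liver, 276, 624 and 361 in fasted knockout liver, 85.2, 57.5 and 114 in refed control liver and 169.8, 129 and 189 in refed knockout liver. The genotypes separated in refed liver and overlapped in fasted liver. At Cyp2b10, a target of the nuclear receptor CAR, the refed knockouts were at 114, 158 and 14.0. The highest of the other livers was a fasted control at 88.7. These P450 genes have close paralogs, and the split of reads between them is uncertain.

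Of lipoprotein genes 6 of 76 regions were members (7.89%), 5 at Lipc and 1 at Angptl8, an inhibitor of lipoprotein lipase. In this list 1 region was lower by at least the factor of the rule. Of clock genes 4 of 60 were members (6.67%): Nr1d2, the repressor Nfil3, the activator Arntl and Hlf, with ratios of 2.77, 1.76, 1.62 and 1.52. Of cholesterol synthesis genes 4 of 69 were members (5.80%), among them the enzymes Mvk and Cyp51, and Insig1, which retains SREBP in the endoplasmic reticulum. Insig1 had 76.8, 90.1 and 97.6 in fasted control liver, 148, 132 and 159.5 in fasted knockout liver, 187, 176 and 235 in refed control liver and 280.1, 331 and 325 in refed knockout liver. Knockouts exceeded controls within each feeding state. Of bile acid genes 3 of 75 regions were members (4.00%), at the phospholipid floppase Abcb4 and the exporter Abcc4. Abcc4 had 159, 186 and 169.9 in fasted control liver, 288, 364 and 321 in fasted knockout liver, 161, 129.9 and 163 in refed control liver and 228, 212 and 223 in refed knockout liver. All knockouts were above all controls.

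Of growth hormone and sex-biased genes 4 of 97 regions were members (4.12%): Cux2, Stat5b, Igf1 and Cyp2b9. As many regions of this list, 4 of 97, were lower in knockout liver by at least the factor of the rule. Among all 40633 regions 311 were lower by that factor. Igf1, the main growth factor that growth hormone induces in liver, had an intronic member (chr10:87343122-87345209) with 86.9, 93.7 and 76.9 in fasted control liver, 126, 128 and 114 in fasted knockout liver, 24.2, 21.3 and 15.1 in refed control liver and 61.9, 58.0 and 91.5 in refed knockout liver. Knockouts exceeded controls in each feeding state, and the refed controls were the lowest. Of gluconeogenesis and fasting genes 3 of 123 were members (2.44%). Irs2, an insulin receptor substrate, had 79.6, 86.4 and 63.1 in fasted control liver, 83.4, 208 and 106 in fasted knockout liver, 10.0, 12.1 and 20.4 in refed control liver and 111, 64.9 and 76.4 in refed knockout liver. Refed controls lay far below the other livers. Fgf21, the fasting hormone, had 323, 531 and 458 in fasted control liver, 849, 551 and 769 in fasted knockout liver, 226, 238 and 347 in refed control liver and 435, 427 and 353 in refed knockout liver. The genotypes separated within each feeding state, with higher means after fasting.

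Periportal genes had 3 of 57 regions (Cdh1, Cps1 and Etnppl), and fatty acid oxidation and ketogenesis 2 of 74 (Acot1 and Acot3). Hepatocyte transcription factors had 1 of 140 (Zfpm1), lipogenesis and glycolysis 1 of 76 (Acaca), unfolded protein and oxidative stress response 1 of 49 (Xbp1), acute phase 1 of 68 (Serpina3n), interferon response 1 of 40 (Mx2) and fetal liver 1 of 17 (Tff3). Endothelial markers had 2 of 180 (Tie1 and Oit3), and hepatocyte markers 1 of 57 (Cps1). LXR targets, pericentral, proliferation, extracellular matrix, stellate, Kupffer cell, lymphocyte and cholangiocyte lists had none, of 51, 74, 34, 77, 32, 6, 8 and 19 regions. Some regions of these lists were lower in knockout liver by at least the factor of the rule. They were 2 endothelial, 1 hepatocyte, 2 periportal and 1 fetal liver region. A further 2 were at LXR targets, 2 at proliferation genes, 1 at extracellular matrix genes and 1 at stellate markers.

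Refeeding was tested because the rule did not compare fasted with refed liver. The test was limma on log2 of the value plus 1, with adjusted p over all 63686 regions. The same values entered the rule, so the shares of members below are not free of the choice of members. In control liver 169 members rose (15.2%; 13.2% of all regions) and 321 fell (28.9%; 16.8% of all regions). In knockout liver 177 rose (15.9%; 13.3% of all regions) and 234 fell (21.1%; 11.4% of all regions). Weighted to the mean levels of the members, 12.2% of regions rose and 18.1% fell in control liver, and 13.2% and 11.6% in knockout liver. A member at or near 0 in a feeding state could pass the limit on the mean only through the other. Of the 781 members with a mean of at least 50 in each feeding state, 92 rose (11.8%) and 191 fell (24.5%) in control liver, against 17.3% and 17.3% of the 37519 regions with such means. In knockout liver 101 rose (12.9%) and 144 fell (18.4%), against 17.6% and 13.4%; this limit was chosen after the values were seen. The median log2 change of the members was -0.24 in control and -0.12 in knockout liver, against -0.03 and 0.02 over all regions. Across genotypes 113 members rose in both, 181 fell in both, none rose in one and fell in the other, and 504 passed in neither. Kupffer cell marker regions summed to 1580 to 2016 in fasted and 2425 to 2875 in refed libraries, both genotypes pooled. Cholangiocyte marker regions summed to 9411 to 10359 and 12207 to 13071, so neither list overlapped between feeding states; their part in the refeeding results was not tested.

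**Figure D5:**
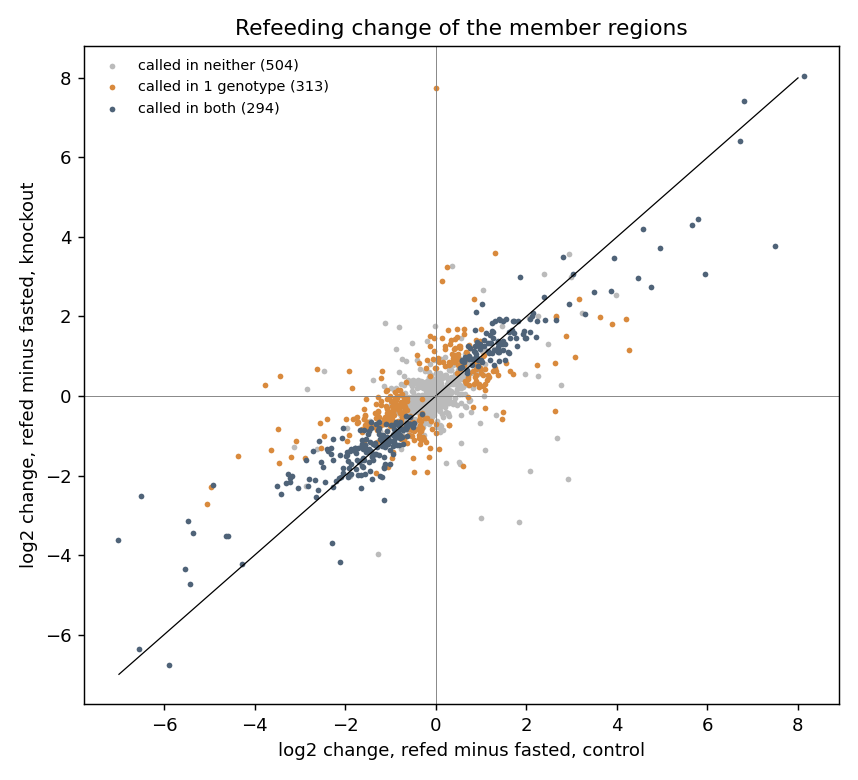
Log2 change of the value plus 1 from fasted to refed control liver (horizontal) and from fasted to refed knockout liver (vertical) for the 1111 members, coloured by whether the change passed the limma test; the diagonal marks equal change. The 294 members called in both genotypes lie in the lower left or the upper right. Points beyond about 6 on either axis have a group at or near 0.

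Several members were at or near 0 in fasted control liver and high after refeeding. They passed the limit on the mean through refed liver, so their difference is a description, with no test. A region 304.4 kb from Cetn3, a centriole protein (chr13:82225598-82227811), had 0, 0 and 0 in fasted control liver, 0, 0 and 0 in fasted knockout liver, 95.3, 107 and 136 in refed control liver and 200.2, 183 and 136 in refed knockout liver. All fasted livers were at 0, and refed livers were higher by at least 37.8-fold in control and 54.7-fold in knockout liver against a floor of 3 reads per library. Near Fam46a, the values were 0, 0 and 0 in fasted control liver, 12.1, 0 and 0 in fasted knockout liver, 143, 60.3 and 131 in refed control liver and 201, 259.5 and 155 in refed knockout liver. Refed control liver was at least 37.4-fold above fasted control liver. A member 304.6 kb from Inhba, a subunit of activin, had 9.15, 1.84 and 17.2 in fasted control liver, 112, 20.9 and 41.2 in fasted knockout liver, 285, 176 and 201 in refed control liver and 290.2, 387 and 277 in refed knockout liver. All 6 refed livers lay above all 6 fasted ones, and a fasted knockout at 112 was the highest of the fasted.

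Other members were high in fasted and at or near 0 in refed liver, and they passed the limit on the mean through fasted liver, so these values too are given with no test. An intronic region of Acaca, the acetyl-CoA carboxylase of fatty acid synthesis (chr11:84134725-84136956), had 134, 124 and 126 in fasted control liver, 239, 134 and 195 in fasted knockout liver, 0, 0 and 0 in refed control liver and 21.4, 17.1 and 7.54 in refed knockout liver. Refed control liver was at least 48.3-fold lower than fasted control liver, and the mean went from 189.6 ± 52.7 to 15.3 ± 7.08 (SD, n = 3) in knockout liver. Near Anks1b the values were 119.8, 96.5 and 70.0 in fasted control liver, 167, 165 and 179 in fasted knockout liver, 0, 0 and 0 in refed control liver and 0, 7.97 and 0 in refed knockout liver. Refed control liver was at least 36.0-fold lower, and 2 of 3 refed knockouts were also at 0. For regions near St7, Trmt10b, Pantr1 and Gstt2 the refeeding change was -4.28 ± 0.88 to -5.88 ± 0.68 in control liver and -3.44 ± 0.73 to -6.77 ± 0.68 in knockout liver (log2, SE).

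Members of metabolic lists moved with feeding too. Insig1 rose in both genotypes (1.17 ± 0.16 and 1.09 ± 0.16; limma adjusted p = 5.46e-05 and 0.000157). Cyp2a5 fell in both (-1.72 ± 0.29 and -1.30 ± 0.29), as did Arrdc4 at 64.1 kb (-1.35 ± 0.17 and -1.18 ± 0.17). The Igf1 member passed the limit on the mean through fasted liver, so its fall is given with no test. It fell by 2.05 ± 0.24 in control and 0.82 ± 0.24 in knockout liver (log2, SE). The Irs2 member also passed that limit through fasted liver, so its changes within a genotype are given with no test. They were -2.40 ± 0.34 in control and -0.57 ± 0.34 in knockout liver. The difference between those changes was 1.83 ± 0.48 and did not pass (limma adjusted p = 0.21). The values of this region entered the rule, so nothing is read from that outcome.

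The runs at Pxylp1, Mbnl2 and Lipc had ratios that depended on feeding state. The 4 Pxylp1 members met the rule through refed knockout liver, since their fasted ratios were at most 1.00, so their change with refeeding there is given with no test. At 37.8 kb it was 3.25 ± 0.50 (log2, SE) in knockout and 0.24 ± 0.50 in control liver. The Mbnl2 member at 85.2 kb met the rule through fasted liver, with ratios of 3.31 fasted and 1.48 refed. The Lipc member at 32.1 kb met it through refed liver, with ratios of 1.05 fasted and 3.25 refed. Their changes within a genotype are thus also given with no test. At Mbnl2 they were -1.31 ± 0.28 in knockout and -0.12 ± 0.28 in control liver, a difference of -1.19 ± 0.39 (limma adjusted p = 0.33). At Lipc they were -1.20 ± 0.30 in control and 0.45 ± 0.30 in knockout liver, a difference of 1.65 ± 0.42 (limma adjusted p = 0.193). Neither of these differences between genotypes passed the test. The values of both regions also entered the rule, so nothing is read from these outcomes.

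Across the members the interaction of genotype and feeding passed for 0 toward a higher refeeding change in knockout liver (0.0157% of all regions) and for 1 toward a lower change (0.00785% of all regions). At an unadjusted limma p under 0.05 the counts were 114 (10.3% of members; 6.35% of all regions) and 41 (3.69% of members; 3.19% of all regions). On the recovered reads edgeR called 0 (0.011% of all regions) and 0 (0.00471%), and DESeq2 16 (0.493%) and 7 (0.306%). The 1 region, which passed the limit on the mean through refed liver, lay 3.6 kb upstream of Lrp2bp (chr8:47090527-47094197), with 0, 0 and 0 in fasted control liver, 27.1, 15.4 and 22.2 in fasted knockout liver, 198, 155 and 189 in refed control liver and 381, 385 and 183 in refed knockout liver. Fasted controls were at 0 while fasted knockouts were at 15.4 to 27.1, and refed knockouts reached the highest values. Refed control liver was at least 60.6-fold above fasted control liver, and the knockout mean went from 21.6 ± 5.89 to 316 ± 115 (SD, n = 3). The limma adjusted p of the interaction was 0.0124, and the call was lost with edgeR (adjusted p = 0.0788) and with a pseudocount of 5 (adjusted p = 0.152). The values of the region also entered the rule, so nothing is read from this call.

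The authors' deposited tables of regions under their own false discovery rate held 289 members for knockout against control in fasted liver (26.0% of members; 3.17% of all regions are in it), which is 14.3% of that table. In refed liver the authors' deposited table held 467 (42.0%; 6.59% of all regions), which is 11.1% of it. With both feeding states the authors' deposited table held 33 (2.97%; 0.473% of all regions), which is 10.96% of it. These tables share the contrast of the rule. The authors' deposited interaction table held 32 members (2.88%; 1.53% of all regions), which is 3.29% of it. Of these, 25 had a log2 ratio above 0 and 7 below, and of all its regions 663 were above and 309 below. For refeeding of controls, the authors' deposited table held an adjusted p for 529 members (47.6%; 32.0% of all regions). These are regions with any such value, and no cutoff was applied here.

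At the threshold itself, members just inside it were near Slc16a6, Pde4b and Elavl3, with ratios of 1.5002, 1.5006 and 1.5005. Regions just outside were near Ninj2, Pias1 and Snx29, with ratios of 1.4997, 1.4997 and 1.4997. The ratio of Snx29 was 0.988 in fasted and 2.62 in refed liver. The median SD of log2 of the value plus 1 between mice of a group was 0.37 for members, against 0.20 for all regions and 0.28 for regions with a mean of 50 to 200.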

How the data were processed

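H3K27ac ChIP-seq of 12 livers was analysed, and 12 input libraries were not analysed here. The authors deposited a table of 63686 regions with a signal value per library, a read number scaled by a factor of that library. Every value was within 0.01 of a whole read after this step was undone, in 100% of values. Per the submitters' processing notes, Bowtie2, MACS2, DiffBind, edgeR and HOMER were among the tools, and mm9 was the build. Versions, the handling of multimapping reads and any subtraction of input were not given in the sources used here. HOMER annotated each region with a class and the gene with the nearest start, per the file headers; that does not show which gene a region regulates. The authors deposited log2 ratios and a false discovery rate, an adjusted p-value, in 4 comparison tables, and GATA4 peak intervals in a column.

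Members and gene lists were chosen with earlier results of these data known. The limma 3.58.1 fit in R 4.3.3 took log2 values after adding a pseudocount of 1, all 4 groups, a shared spread and an intensity trend, with Benjamini-Hochberg adjustment over all regions and a threshold of 0.05. Contrasts were refed against fasted in each genotype and their interaction. It was tested on simulated data. edgeR 4.0.16 and DESeq2 1.42.0 on the recovered reads were alternatives, beside other thresholds, pseudocounts, normalizations and leaving out each library. Replicates are separate mice per the labels. Values in sentences follow replicates 1, 2 and 3 of a group, and ± is SD for values and SE for log2 changes. Named members were, by rule, those with the highest ratio, mean or width, those with GATA4 peaks, at promoters or in genes with most members, the largest refeeding changes, up to 4 per list, and those at the threshold; predicted genes were left out, and not all are described. A floor is 3 reads per library and covers counting error only; it is no bound if low values were set to 0. Coordinates are 1-based. The confidence intervals used to judge shares are exact 95% binomial. They treat regions as independent, though many members lay in runs and all come from the same livers. The intervals thus do not measure the spread between mice.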

Additional observations from a re-analysis of the deposited data

Results flagged for a closer look

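The region near Lrp2bp was marked because an interaction test called its refeeding change different between the genotypes. It passed the limit on the mean through refed liver, and its values entered the rule, so nothing is read from the call. The call was lost with edgeR (adjusted p = 0.0788) and with limma at a pseudocount of 5 (adjusted p = 0.152). The limma log2 change was 7.498 in control and 3.77 in knockout liver, a difference of -3.73 (adjusted p = 0.0124). Fasted controls were at 0 in all 3 libraries, so the size of these changes depends on the pseudocount. In each genotype all 3 refed libraries lay above all 3 fasted ones.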

How the results depend on the processing

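The number of regions that meet the rule moved from 1111 to 3368 with a minimum mean of 20, to 455 with 100, to 122 with a threshold of 2, to 461 when both feeding states had to reach 1.5, and to 595 when the ratio was divided by the median ratio of regions of like mean, an alternative chosen after seeing the data. It was 1098 to 1618 without 1 library. The 4 counts of members that rose or fell with refeeding stayed within 1.5 times in 20 alternatives. Over members with a mean of at least 50 in each feeding state, an alternative chosen after seeing the data, they were 92 and 191 in control and 101 and 144 in knockout liver, and the interaction counts 0 and 0; fewer members enter. Without 1 library, over all members, they were 129 to 178 and 280 to 320 in control, and 137 to 199 and 176 to 248 in knockout liver. Interaction counts, higher and lower, were 16 and 7 with DESeq2, 0 and 0 with edgeR, 1 and 1 without a trend or with a pseudocount of 0.5, 1 and 0 with a pseudocount of 5, and 0 to 3 and 1 to 7 without 1 library; the cause was not tested. At a threshold of 2 the percents with a GATA4 peak, in introns, between genes and at promoters were 0, 41.8, 51.6 and 3.28; with both feeding states at 1.5 the last 3 were 46.0, 49.0 and 1.30. Of 105 called changes of named members, 31 lost the call in some alternative and 0 reversed. The 105 include changes given above with no test, such as those near Cetn3, Acaca and Pxylp1, so nothing is read from these counts. Regions of 50 to 100 in value rest on few reads. No paired analysis was possible because the groups share no replicate numbers in the labels.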
